A study of Rattus norvegicus with 13 samples.

Results

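The 5 miRNAs described here, rno-miR-23a, rno-miR-27a, rno-miR-23b, rno-miR-27b and rno-miR-24 (written below without the rat prefix), are the mature products of the miR-23a/27a/24-2 and miR-23b/27b/24-1 gene clusters. They were taken by name from the 677 rat miRNAs on an Agilent 1-colour array. All 5 were detected on all 13 arrays, so none was lost to a filter on low signal. The 6 opposite-strand miRNAs of the same precursors on the array were described alongside them.

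Each cluster is copied as a single transcript that is cut into hairpins and then into mature strands of about equal length, and in vertebrates the clusters are duplicates of one another. The miRNA pairs they encode are known from blood vessels, muscle and fat. In cultured fat cell precursors miR-27a and miR-27b restrain differentiation, with the nuclear receptor PPARgamma, which drives that differentiation, among their targets. miR-23a and miR-23b are known for targets in glutamine metabolism, and miR-24 for targets in the cell cycle.

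The RNA came from the fat of 13 Sprague Dawley female rats, each hybridised to one array. The 7 Control animals were daughters of males on standard chow with 9% fat, and the 6 HFD animals were daughters of males on high-fat pellets with 43% fat. Mating took place when the fathers were 15 weeks old, with females that ate chow. Daughters of both groups were weaned at 3 weeks to chow and gave fat at 14 weeks. Only the father's diet differed by label, and litter, father and fat depot are not named in the sources used here, so daughters of one father could not be recognised and the p-values measure the spread between these animals.

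The mature sequences show why the array reads 5 products and not 6. They are given 5′ to 3′ from RefSeq on the rat build GRCr8, with the seed, bases 2 to 8 from the 5′ end, in capitals, since the seed is what pairs with most targets.
miR-23a: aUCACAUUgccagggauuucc
miR-23b: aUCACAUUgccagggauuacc
miR-27a: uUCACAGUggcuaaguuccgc
miR-27b: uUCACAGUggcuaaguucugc
miR-24: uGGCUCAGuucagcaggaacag
miR-23a and miR-23b matched at 20 of 21 bases and differed by U19A, counted from the 5′ end with the miR-23a base first. miR-27a and miR-27b likewise matched at 20 of 21 bases and differed by C19U, with the miR-27a base first. Both differences lie outside the seed. Among 693 rat mature names in RefSeq the seed UCACAUU was held by the miR-23 pair only, UCACAGU by the miR-27 pair only and GGCUCAG by miR-24 only. The miR-23 and miR-27 seeds differ from one another at 1 base, U7G from miR-23a to miR-27a. Both clusters release the same mature miR-24, so the array gave it 1 value that sums both sources, whereas each a and b product had probes of its own. How far a probe for one paralog also binds the other, 1 base apart, was not tested.

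The hairpins of the first cluster lie on the minus strand of chromosome 19 in the order Mir23a (chr19:40859769-40859843), Mir27a (chr19:40859603-40859689) and Mir24-2 (chr19:40859455-40859562). They span 389 bases outside any protein-coding gene of the RefSeq annotation, with Zswim4 the nearest. The hairpins of the second cluster lie on the minus strand of chromosome 17, with Mir23b at chr17:1819386-1819482, Mir27b at chr17:1819147-1819243 and Mir24-1 at chr17:1818669-1818736. They span 814 bases inside Aopep, an aminopeptidase gene, and Fancc, a DNA repair gene, overlaps part of that span.

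Signals were strong and repeatable. Each member had 2 probes of 10 spots, the mean probe signals ran from 831 to 14534 intensity units, and 0 spots were saturated. The median coefficient of variation among the spots of a probe was 2.77%, and the 2 probes of a member followed one another over the 13 arrays with a Pearson r of 0.931 to 0.994. The arrays detected 155 to 196 miRNAs each, and between 20% and 25.1% of spots were well above background. Any 2 arrays correlated at 0.922 to 0.997 over the 176 tested miRNAs. The 5 miRNAs listed as abundant in adipocytes, miR-103, miR-107, miR-378, miR-193 and miR-365, were each detected on 13 arrays. So were markers of other tissues, among them miR-1 and miR-133b of muscle, miR-451 of red blood cells and miR-126 of endothelium. Others, such as miR-208, miR-124 and miR-375, were detected on 0 arrays. Detection alone therefore does not identify the tissue. The mean of the 3 tested skeletal and heart muscle markers, of 6 listed, spanned 5.56 log2 units between arrays. The arrays sat on 2 slides, 8 arrays (4 Control, 4 HFD) on slide 1 and 5 arrays (3 Control, 2 HFD) on slide 2.

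Levels below are log2 of a miRNA's signal over the 75th percentile of the bright probes of its own array, so a level of 0 equals that percentile. Since probes differ in brightness, no level is ranked against that of another miRNA. Differences are HFD minus Control on the same log2 scale.

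None of the 5 members passed the test between the diet groups. The differences of miR-23a, miR-27a and miR-24 lay between -0.053 and 0.0040 log2 units, whereas the b products miR-23b and miR-27b averaged 0.841-fold and 0.874-fold the Control level in HFD daughters, with intervals that include no difference. Over the 176 tested miRNAs limma called 0 at an adjusted p under 0.05, a share of 0%, and 2 (1.14%) at an unadjusted p under 0.05, miR-214 and miR-193*, neither of them a member and both named here after their values were seen. The HFD mean was the lower one for 4 of 5 members, miR-23a among them by a difference whose sign turned with the scaling, and for 85 of all 176 tested miRNAs (48.3%). No tested miRNA had groups that did not overlap (0%). In bulk tissue, fewer cells of a type and less RNA per cell cannot be told apart.

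miR-23a, the first hairpin of the chromosome 19 cluster, ran from 2.06 (Control 664) through a median of 2.22 to 2.39 (Control 656) in the 7 Control arrays. In the 6 HFD arrays it ran from 2.06 (HFD 663) through 2.20 to 2.35 (HFD 620). The 2 ranges nearly coincide, and 6 of 7 Control arrays lay within the HFD range. The means were 2.20 ± 0.13 (SD, n = 7) and 2.19 ± 0.11 (SD, n = 6), a difference of -0.0021 ± 0.069 (SE) with a limma adjusted p of 0.999. The 95% interval of the fold was 0.901 to 1.11. The sign of a difference this small turned with quantile normalization, with normexp background and without scaling.

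miR-27a, its neighbour, ran from 0.29 (Control 664) through 0.51 to 0.78 (Control 656) in Control arrays and from 0.44 (HFD 619) through 0.49 to 0.62 (HFD 660) in HFD arrays. The HFD arrays sat inside the Control range. The means were 0.51 ± 0.16 (SD, n = 7) and 0.52 ± 0.077 (SD, n = 6), and the difference was 0.0040 ± 0.070 (SE) with a limma adjusted p of 0.999. The fold interval ran from 0.903 to 1.11, and the sign turned with scaling over all probes and on total gene signal, the scanner software's own sum per miRNA.

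miR-24, which both clusters release, ran from 0.69 (Control 664) through 0.89 to 1.17 (Control 656) in Control arrays and from 0.74 (HFD 663) through 0.85 to 0.94 (HFD 660) in HFD arrays. Control 658, at 1.03, was the other Control array above all HFD arrays. The means were 0.90 ± 0.16 (SD, n = 7) and 0.84 ± 0.079 (SD, n = 6), a difference of -0.053 ± 0.072 (SE), or 0.964-fold with an interval of 0.866 to 1.07, and a limma adjusted p of 0.976. Without Control 656 the difference was -0.0078.

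miR-23b, the first hairpin of the chromosome 17 cluster, ran from 0.46 (Control 631) through 0.61 to 1.25 (Control 658) in Control arrays and from 0.32 (HFD 624) through 0.40 to 0.73 (HFD 629) in HFD arrays. Control 658 and Control 656 (0.97) lay above every HFD array, the other 5 Control arrays lay within the HFD range, and 5 of 6 HFD arrays lay below the Control mean. The means were 0.70 ± 0.30 (SD, n = 7) and 0.45 ± 0.15 (SD, n = 6). The difference was -0.25 ± 0.13 (SE), or 0.841-fold with an interval of 0.696 to 1.02, with a limma p of 0.0710 before and 0.965 after adjustment. Its 2 probes gave differences of -0.28 and -0.22.

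miR-27b ran from -0.48 (Control 664) through -0.35 to 0.30 (Control 658) in Control arrays and from -0.66 (HFD 624) through -0.48 to -0.059 (HFD 629) in HFD arrays. The arrays stood in much the same places as for miR-23b: Control 658 and Control 656 (0.069) were above every HFD array, and HFD 629 was the one HFD array above the Control mean. The means were -0.24 ± 0.30 (SD, n = 7) and -0.43 ± 0.21 (SD, n = 6). The difference was -0.19 ± 0.14 (SE), or 0.874-fold with an interval of 0.711 to 1.07, and a limma adjusted p of 0.965. Its 2 probes gave -0.21 and -0.18.

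**Figure D1:**
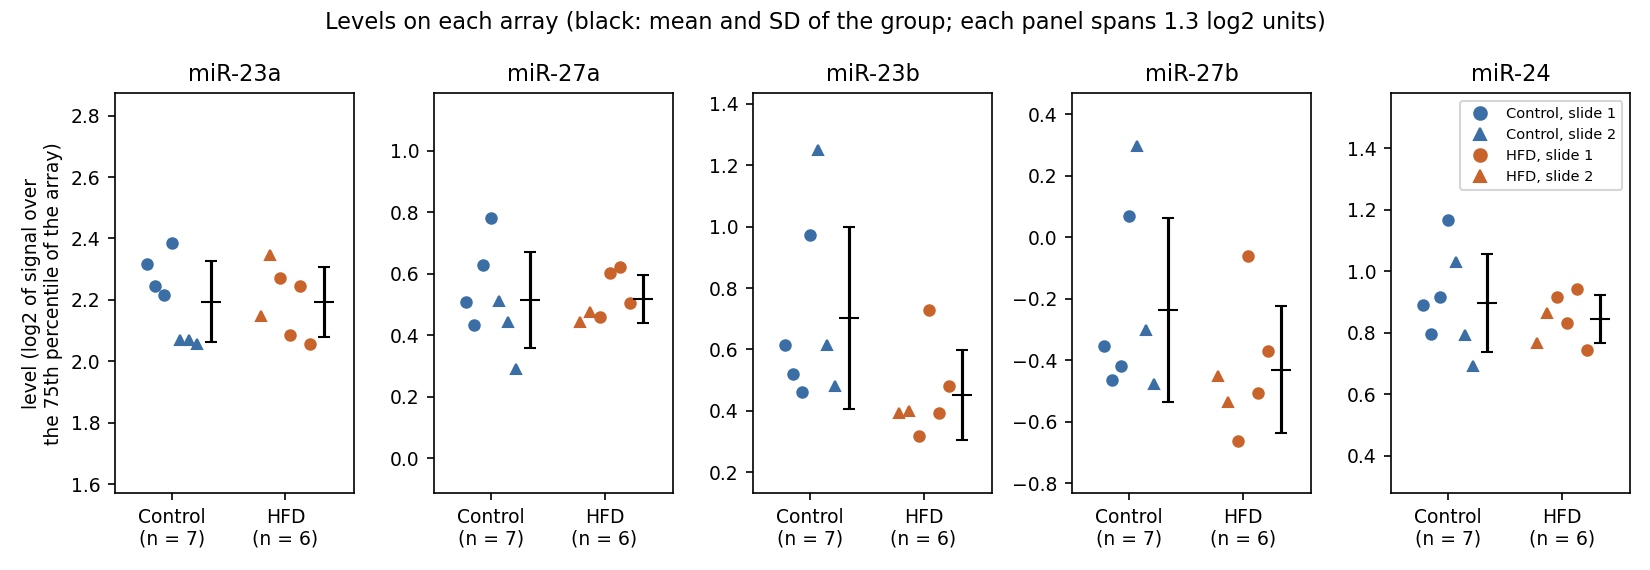
Level of each member on each array, as log2 of signal over the 75th percentile of the array (vertical axis), by diet group, with circles for slide 1 and triangles for slide 2. Black bars give the mean and SD of 7 Control and 6 HFD arrays, and each panel spans the same number of log2 units; miR-23b and miR-27b are spread more widely than miR-23a, miR-27a and miR-24, with Control 658 at the top at 1.25 and 0.30.

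Leaving out each of the 13 arrays in turn, the b products' difference moved most without Control 658. Without Control 658 the difference was -0.16 for miR-23b and -0.11 for miR-27b, against -0.25 and -0.19 with it. Without HFD 629, the highest HFD array of both, it was -0.30 and -0.27. On Control 658 all 5 tested markers of smooth muscle and stroma, miR-143, miR-145, miR-199a-3p, miR-199a-5p and miR-214, were at their highest of the 13 arrays. The mean level of those markers was 0.40 on Control 658, while the full range was -1.19 to 0.40 in Control and -1.30 to -1.08 in HFD arrays. miR-143, abundant in smooth muscle, stood at 3.74 on Control 658 and between 1.10 and 1.77 on the other 12 arrays. Control 658 was also the lowest of the 13 arrays for the mean of the white blood cell markers (-2.26) and of the tested epithelium markers (-3.92). Of the adipocyte list, miR-193 was at its highest there and miR-103 at its lowest. All 5 markers of smooth muscle and stroma had a lower mean in HFD than in Control arrays, with a median difference of -0.35, and 0 of 5 passed the test. Without Control 658 the median was -0.18 and 4 of 5 had a lower mean. The differences were then -0.27 for miR-214 (limma adjusted p of 0.289), -0.20 for miR-199a-5p, -0.18 for miR-199a-3p, -0.023 for miR-143 and 0.069 for miR-145. Control 656, which came next for miR-23b and miR-27b, was also next to it for the marker mean. HFD 629 did not follow this order, ranking 12 of 13 for those markers. It was highest for the mean of the skeletal and heart muscle markers, at 0.50, and for the mean of the nerve and brain markers. Each of these means covers the 3 tested of 6 listed markers. Of the rest, miR-208 and miR-124 were detected on 0 arrays, and miR-133a, miR-206, miR-9 and miR-9* on 5, 3, 4 and 2. Control 662 and Control 664 came next for the muscle markers, at 0.46 and -0.13, with miR-23b at 0.61 and 0.48. With the muscle marker mean as a covariate, the difference of miR-23b was -0.245 ± 0.129 (SE), with a limma adjusted p of 0.851. The part of stroma, muscle or nerve in the b products' levels was not itself tested.

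The b products had a negative difference on both slides. On slide 1 it was -0.16 for miR-23b and -0.11 for miR-27b, and on slide 2, where Control 658 lay, -0.38 and -0.33, or -0.15 and -0.10 without that array. With slide as a block the differences were -0.25 and -0.19. miR-23a went opposite ways, at -0.13 on slide 1 and 0.18 on slide 2, with a limma interaction p of 0.0163 and an adjusted p of 0.217. That interaction passed an unadjusted p under 0.05 for 34 of 176 miRNAs (19.3%) and an adjusted p under 0.05 for 1 (0.568%), the red blood cell miRNA miR-451, named here after its values were seen. For miR-27a, miR-23b, miR-27b and miR-24 the interaction had adjusted p of 0.728 to 0.839 in limma.

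**Figure D2:**
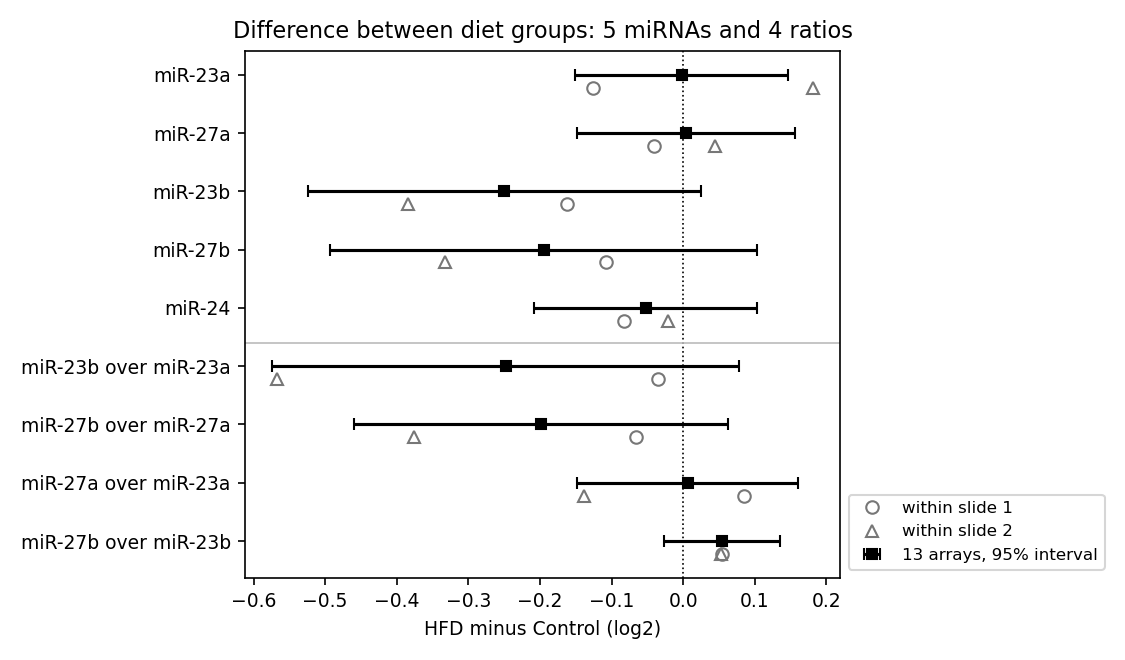
Difference HFD minus Control in log2 units (horizontal axis) for the 5 members and 4 ratios of members, with squares and bars for the estimate over 13 arrays and its 95% interval, and open symbols for each slide alone. Every bar crosses 0; miR-23b and miR-27b lie at -0.25 and -0.19, and the estimates for miR-23a and miR-27a lie so close to 0 that their sign turned with the scaling.

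The members differed in how much they varied between animals. Over all 13 arrays the SD of the log2 level was 0.26 for miR-23b and 0.27 for miR-27b, and 0.12 for miR-23a, 0.12 for miR-27a and 0.13 for miR-24. Among the 176 tested miRNAs 34 varied more than miR-23b and 31 more than miR-27b, but 120 varied more than miR-23a, 118 more than miR-27a and 113 more than miR-24. From the lowest to the highest array the signal spanned 1.91-fold for miR-23b and 1.94-fold for miR-27b, and 1.26-fold for miR-23a, 1.41-fold for miR-27a and 1.39-fold for miR-24. Whether the spreads differ was not tested.

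A ratio of 2 members on the same array does not depend on a factor that scales the whole array. Its height reflects both probes' brightness, so only its change between arrays was read. In all 4 ratios were compared, b over a for each family and miR-27 over miR-23 within each cluster, by two-sided exact permutation over 1716 splits, whose smallest possible p is 0.000583, with adjustment over the 4. The log2 ratio of miR-23b to miR-23a ran from -1.76 (Control 631) through -1.58 to -0.82 (Control 658) in Control arrays and from -1.95 (HFD 624) through -1.80 to -1.36 (HFD 629) in HFD arrays. Control 658 was the one Control array above all HFD arrays. The means were -1.49 ± 0.32 (SD, n = 7) and -1.74 ± 0.23 (SD, n = 6), a difference of -0.25 with an exact permutation p of 0.142, adjusted 0.189. The log2 ratio of miR-27b to miR-27a ran from -1.05 (Control 631) through -0.77 to -0.21 (Control 658) in Control arrays and from -1.13 (HFD 660) through -0.95 to -0.66 (HFD 629) in HFD arrays. Again Control 658 stood alone above the HFD arrays. The means were -0.75 ± 0.26 (SD, n = 7) and -0.95 ± 0.18 (SD, n = 6), a difference of -0.20 with an exact permutation p of 0.141, adjusted 0.189.

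Neither paralog ratio passed the test. In fold terms the b over a ratio in HFD was 0.842 of Control for miR-23, with a 95% interval of 0.672 to 1.06 from limma, and 0.871 for miR-27, with 0.727 to 1.04. Without Control 658 the log2 differences were -0.14 and -0.11. They were small on slide 1, at -0.036 and -0.066, and larger on slide 2, at -0.57 and -0.38, where 3 arrays against 2 cannot give an exact p below 0.1. Without Control 658 the slide 2 values were -0.34 and -0.19.

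Within the clusters the miR-27 to miR-23 ratio was steadier on chromosome 17. The log2 ratio of miR-27b to miR-23b averaged -0.94 ± 0.037 (SD, n = 7) in Control and -0.88 ± 0.069 (SD, n = 6) in HFD arrays, and over all 13 arrays its SD was 0.059. That of miR-27a to miR-23a averaged -1.68 ± 0.11 (SD, n = 7) and -1.68 ± 0.15 (SD, n = 6), with an SD of 0.12 over all arrays. The group difference was 0.055 for the b pair, with 5 of 6 HFD arrays above the Control mean, an exact permutation p of 0.0950 and an adjusted p of 0.189. For the a pair it was 0.0061, with an exact permutation p of 0.930, and its sign turned with quantile normalization, as did that of the b pair.

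**Figure D3:**
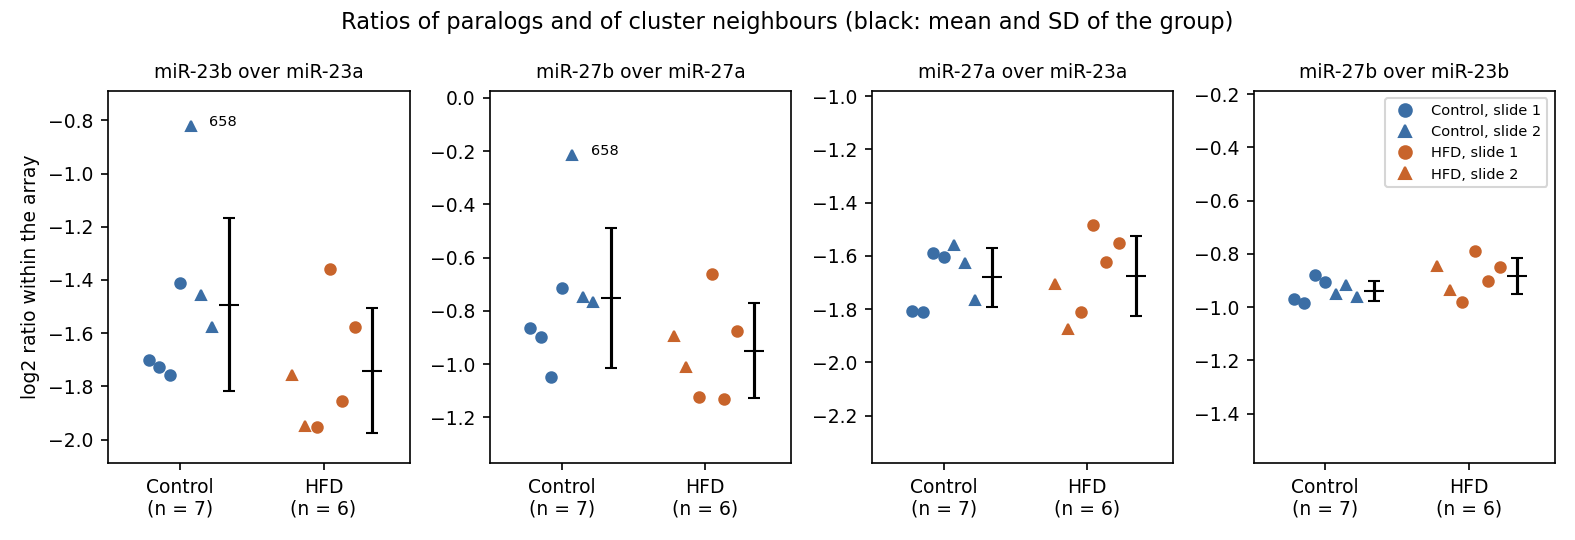
Log2 ratio of 2 members on the same array (vertical axis), by diet group, with black bars for the mean and SD of 7 Control and 6 HFD arrays. Control 658 stands alone at the top of both b over a ratios, at -0.82 and -0.21, and the miR-27b over miR-23b ratio has the narrowest spread of the 4 panels.

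Across the 13 arrays miR-23b and miR-27b varied almost together. Pearson's r was 0.976 (permutation p = 1e-05, the smallest that 100000 resamples can give, adjusted 1e-04 over the 10 pairs of members) and Spearman's rho 0.890 (permutation p = 1e-04, adjusted 0.001). Without Control 656 and Control 658, the 2 arrays farthest from the median of miR-23b, r was 0.921. It was 0.992 within the Control arrays, 0.982 within the HFD arrays and 0.962 within slide 1, while slide 2 holds 5 arrays, too few for a value. For comparison, the median r over all 15400 pairs of tested miRNAs was 0.029, and 11 pairs (0.0714%) reached the value of this pair or more. Among 175 tested miRNAs each was the nearest to the other.

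For the chromosome 19 pair the correlation did not pass the test. For miR-23a and miR-27a, r was 0.464 (permutation p = 0.110, adjusted 0.184) and rho 0.335 (permutation p = 0.265, adjusted 0.529). A value that high was reached by 2235 pairs of tested miRNAs (14.5%), and miR-27a ranked 37 among the 175 miRNAs by likeness to miR-23a, whose nearest was miR-324-5p at 0.813. Without Control 656 and HFD 663 the r was 0.244. It was 0.723 within the Control arrays and -0.217 within the HFD arrays. The value changed with the scaling, to 0.226 with quantile normalization, 0.925 without any and 0.724 on total gene signal. The difference between the correlations of the 2 clusters was not tested, and miR-23a and miR-27a also span a smaller range of levels.

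miR-24 followed miR-27a most closely, with r of 0.790 (permutation p = 0.00173, adjusted 0.00865) and rho of 0.742 (permutation p = 0.00468, adjusted 0.0234), and each was the nearest of 175 miRNAs to the other. The relation was weaker without Control 656 and Control 664, the 2 arrays farthest from the median of miR-27a. Then r was 0.418 (permutation p = 0.200) and rho 0.573 (permutation p = 0.0712), over a narrower range of miR-27a. On all 13 arrays r was 0.892 with quantile normalization (permutation p adjusted 2e-04) and 0.890 on total gene signal (permutation p adjusted 5e-05). On the main scaling r was 0.901 within the Control arrays, 0.371 within the HFD arrays and 0.793 within slide 1. With miR-23a, miR-24 had r of 0.574 (permutation p = 0.0373, adjusted 0.0964) and rho of 0.604 (permutation p = 0.0318, adjusted 0.106), and without Control 656 and HFD 663 an r of 0.288. For miR-24 with miR-23a, r was 0.782 on total gene signal (permutation p adjusted 0.00895) and 0.333 with quantile normalization. It was 0.562 within the Control arrays, 0.719 within the HFD arrays and 0.792 within slide 1. With miR-23b the r was 0.591 (permutation p = 0.0386, adjusted 0.0964) and with miR-27b 0.549 (permutation p = 0.0542, adjusted 0.108), but rho was 0.143 (permutation p = 0.645) and 0.198 (permutation p = 0.519). Without Control 656 and Control 658, the 2 arrays farthest from the median of the b product, the 2 r values were -0.222 and -0.225, over a narrower range of it. They were 0.752 and 0.796 within the Control arrays, but -0.326 and -0.442 within the HFD arrays. On total gene signal r was 0.612 (permutation p adjusted 0.0396) and 0.541 (adjusted 0.0886), and rho 0.566 (permutation p adjusted 0.0774) and 0.440 (adjusted 0.169).

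Between paralogs no correlation passed the test on scaled levels. For miR-23a and miR-23b r was -0.135 (permutation p = 0.670) and rho -0.192 (permutation p = 0.531), and r was -0.517 without Control 656 and HFD 663. For miR-27a and miR-27b r was 0.447 (permutation p = 0.131, adjusted 0.187) and rho 0.440 (permutation p = 0.137, adjusted 0.343), and r was 0.183 without Control 656 and Control 664. The crossed pairs gave r of -0.208 (permutation p = 0.503) and rho of -0.253 (permutation p = 0.407) for miR-23a with miR-27b, and r of 0.370 (permutation p = 0.211) and rho of 0.236 (permutation p = 0.437) for miR-27a with miR-23b. Leaving out the same arrays gave -0.582 and 0.073. With quantile normalization the r of miR-23a and miR-23b was -0.382. Without any scaling all 10 pairs of members passed the test. Then r was 0.604 for miR-23a and miR-23b (permutation p adjusted 0.0299) and 0.804 for miR-27a and miR-27b (permutation p adjusted 0.00139). Unscaled levels share the brightness of their array, whose 75th percentile ran from 1546 (Control 627) to 2540 (HFD 629) intensity units. The part of that shared brightness in these r values was not tested.

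**Figure D4:**
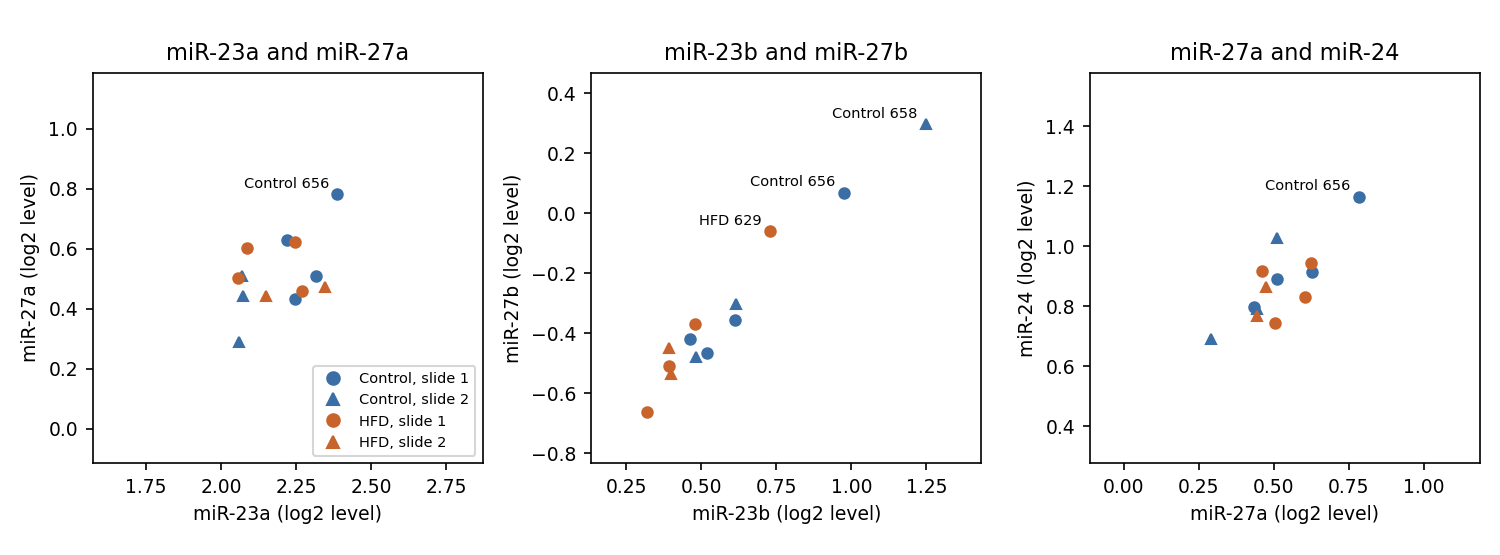
Levels of 2 members against each other on the 13 arrays, both axes in log2 units of equal length in all panels, with colour for diet group and shape for slide. The points of miR-23b and miR-27b lie nearest to a line (r of 0.976, beside 0.464 for miR-23a and miR-27a and 0.790 for miR-27a and miR-24), and Control 658, Control 656 and HFD 629 are the 3 highest arrays for miR-27b.

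The 2 hairpins that release miR-24 differ in their opposite strands, which are shown because only one of them was measured above background. The 2 sequences share a seed and differ at 5 of 22 bases near the 3′ end, and the array names them apart.
miR-24-2*, from chromosome 19: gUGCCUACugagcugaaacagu
miR-24-1*, from chromosome 17: gUGCCUACugagcugauaucag
Of the 6 opposite strands on the array, miR-24-2* was detected on 13 arrays, and miR-23a*, miR-27a*, miR-23b*, miR-27b* and miR-24-1* were detected on 0 arrays and lay at the floor of -5.67. A floor value is a bound set by the array and not a level of zero. miR-24-2* had 4 probes, and 1 of them lay at the floor on all 13 arrays. Its level ran from -4.38 (Control 627) through -4.25 to -3.98 (Control 656) in Control arrays and from -4.25 (HFD 629) through -4.19 to -4.12 (HFD 660) in HFD arrays. The HFD arrays lay inside the Control range. The means were -4.23 ± 0.13 (SD, n = 7) and -4.18 ± 0.048 (SD, n = 6), a difference of 0.048 ± 0.059 (SE) with a limma adjusted p of 0.976. Over the 13 arrays its r was 0.681 with miR-27a and 0.674 with miR-24, and 0.131 with miR-23b and 0.181 with miR-27b. These r values are descriptions over arrays that share one scaling.

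By rule, the 5 tested miRNAs most like the mean of each pair, and most like miR-24, were named by r over 13 arrays. The r over the 12 arrays without Control 658 was added after the data were seen. Nearest to the mean of miR-23a and miR-27a were miR-126 at 0.712 (0.715 without), a miRNA of endothelium, then miR-361 at 0.625, miR-24-2* at 0.620, miR-324-5p at 0.620 and miR-140* at 0.590. Nearest to the mean of miR-23b and miR-27b were miR-221 at 0.794, miR-143 at 0.791, miR-455* at 0.776, miR-222 at 0.774 and miR-143* at 0.774. Of these, miR-455* lay at the floor on 7 arrays, and miR-222 and miR-143* on 8 each. The 5 values fell to between 0.394 and 0.557 without Control 658. On that array miR-221 stood at -1.75, against -3.95 to -3.34 on the other 12. Nearest to miR-24, leaving out the members, were miR-24-2* at 0.674, miR-652 at 0.627, miR-181c at 0.596, miR-99b at 0.580 and miR-181d at 0.570.

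Other miRNAs known to act on fat cell formation did not pass the test either. Of 17 listed miRNAs that restrain adipocyte differentiation, a list that includes miR-27a and miR-27b, 16 were on the array and 9 were tested; 2 had a higher and 7 a lower mean in HFD arrays, and 0 passed. Their median difference was -0.072, beside 0.0028 over all 176 tested miRNAs, and -0.029 without Control 658 and -0.037 without Control 656. The lowest p on this list belonged to miR-221, with -0.52 ± 0.27 (SE) and a limma adjusted p of 0.965. Without Control 658 its difference was -0.26 ± 0.086 (SE), with an adjusted p of 0.774 in limma. Next came miR-27b and then miR-222, which shares a cluster and a seed with miR-221. miR-222 lay at the floor on 6 of 6 HFD and 2 of 7 Control arrays and at -3.87 on Control 658, against at most -5.48 on the other 12 arrays, so no size is given for its difference. Of 18 listed miRNAs that promote adipocyte differentiation, 17 were on the array and 16 were tested; 8 had a higher and 8 a lower mean, and 0 passed. Their median difference was 0.0034, with miR-378, a miRNA of fat cell metabolism, at 0.16 ± 0.11 (SE), miR-26b at -0.050 ± 0.049 (SE) and miR-143 at -0.35 ± 0.34 (SE), or -0.023 ± 0.097 (SE) without Control 658. The median was -0.044 without HFD 629 and 0.017 without Control 627, so it has no settled sign.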

How the data were processed

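The authors made the spot intensity values with Feature Extraction 10.7.3.1 (Agilent), using a grid of rat build rn4, per the file headers. They are linear, background-subtracted and carry no normalization between arrays. The deposited value table is log2 of the software's total gene signal, as a comparison of each column with its array's scanner values showed, and is not centred (column medians 6.95 to 7.77). It served as an alternative only, because 25 of its 2569 values, 3 of them for members, differed from that signal by over 0.001. Those values, apart from that of miR-150 on HFD 620, were 10.0 to 1053 times the signal. RMA and Partek appear in the submitters' processing notes with no stated use.

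The level of a probe is the mean of its unflagged spots over the 75th percentile, on that array, of the 260 probes found on all 13 arrays. Levels were floored at 0.0197 (log2 -5.67), taken to log2 and averaged over the probes of a miRNA. Detection required 1 probe with 0.5 or more of its spots well above background, and testing required detection on 6 arrays or more, which left 176 of 677 miRNAs. limma 3.58.1 in R 4.3.3 compared the groups (two-sided, Benjamini-Hochberg over the 176, threshold 0.05) and was tested on simulated data. Ratios were compared by exact permutation. Correlations used 100000 permutations, or exact ones for up to 8 arrays. Named were the members, their opposite strands, the 5 miRNAs nearest each profile, and of 2 lists on adipocyte differentiation up to 3 tested miRNAs by lowest p. Members and lists were chosen with earlier results of these data known. No 2 arrays held identical values, and the number of arrays limits the precision. The normexp alternative, planned on mean spot signals, was run on median spot signals, which the columns hold. Other alternatives were scalings, floor, flags, probe summary, filters, slide, range of animal numbers, array weights, muscle markers, and each array left out.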

Additional observations from a re-analysis of the deposited data

Results flagged for a closer look

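Control 658 stood apart from the other Control arrays in both paralog ratios. Its log2 ratio of miR-23b to miR-23a was -0.82, while the nearest other Control array was at -1.41, a gap of 0.632 of the group's whole range. Its log2 ratio of miR-27b to miR-27a was -0.21, and the nearest other was at -0.71, a gap of 0.599 of the range. Both exceed the critical value of Dixon's test for 7 arrays. Of 20 groups of values looked at, 2 did so, and chance gives such a gap in about 1 in 20 groups. The levels of the members themselves passed no such limit in either group. The ratios share an array and, across arrays, miR-23b and miR-27b varied together, so the 2 gaps are not independent of one another.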

How the results depend on the processing

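No paired analysis was possible because the animal numbers in the titles are not shared between the groups. Over 34 alternatives 0 miRNAs passed the test, with a lowest adjusted p of 0.104 in limma. miR-23b (-0.38 to -0.15) and miR-27b (-0.33 to -0.10) kept a negative difference under every alternative, without passing the test. The difference of miR-23a turned positive with quantile normalization (0.043), no scaling (0.017), normexp (0.0092), an RMA-like summary (0.057), the deposited table with or without its disagreeing values (0.025), flagged spots kept (0.00052), the brightest probe (0.0074) and within slide 2 (0.18). That of miR-27a turned negative with the percentile over all probes (-0.013), total gene signal (-0.040), the deposited table without disagreeing values (-0.042), the brightest probe (-0.0027), slide as a block (-0.0090), within slide 1 (-0.041), array weights (-0.011) and muscle markers as a covariate (-0.0016). With each array left out, miR-23a ran from -0.033 to 0.030, miR-27a from -0.033 to 0.049, and the ratio of miR-27a to miR-23a from -0.032 to 0.046. That ratio also turned with quantile normalization (-0.026), the RMA-like summary (-0.033), the brightest probe (-0.010) and within slide 2 (-0.14), and the ratio of miR-27b to miR-23b with quantile normalization (-0.0095).

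Correlations moved more. That of miR-23a and miR-23b turned positive within slide 1 (0.293), without scaling (0.604) and on total gene signal (0.110), and that of miR-23a and miR-27b within Control (0.015), within slide 1 (0.061) and without scaling (0.628). That of miR-23a and miR-27a was -0.217 within HFD, 0.226 with quantile normalization, and passed the test without scaling (0.925) and on total gene signal (0.724). Without scaling, where levels share the brightness of their array, all 10 pairs of members passed. Those of miR-24 with miR-23b and miR-27b were -0.326 and -0.442 within HFD. They were -0.222 and -0.225 without the 2 arrays farthest from the median of the b product, which narrows its range. On total gene signal those of miR-24 with miR-23a (0.782, permutation p adjusted 0.00895) and with miR-23b (0.612, permutation p adjusted 0.0396) passed the test. That of miR-23b and miR-27b within HFD was 0.982, no longer past the threshold (permutation p adjusted 0.0694, n = 6). Slide 2 without Control 658, the nearest miRNAs' r without Control 658, the correlations beyond the 2 cluster pairs and the list medians under other settings were chosen after seeing the data. The cause of these shifts was not tested.

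In the deposited table as it stands, miR-27a differed by 1.14, since 2 of its HFD values were 10 times the scanner's own, and miR-24 by -0.50, since 1 Control value was. The level of miR-24-2* averages in a probe that lay at the floor on all 13 arrays, which makes its spread and its difference smaller. Its other probes had Control means of -5.05, -3.31 and -2.90, and differences of 0.12, 0.050 and 0.027.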
